A study of Mus musculus with 60 samples.

Results

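The 10 immediate early genes Fos, Fosb, Fosl1, Jun, Junb, Jund, Egr1, Atf3, Ier2 and Klf6 were measured in single tumor cells sorted from bone. They were chosen by name and not by a measured value, though with earlier results of these data known, from 47729 mouse genes in the count table. All 10 passed a minimum of 1 CPM (counts scaled to one common total per library) in at least one group, as did 12432 genes in all.

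Immediate early genes are genes whose transcription starts within minutes of a stimulus without any new protein being made. Growth factors, stress signals and mechanical handling reach them through kinases of the MAPK family, which act on factors already bound at their promoters, and their short-lived messages normally decay soon after. Many of the products are themselves transcription factors: Fos and Jun proteins pair to form AP-1, and Egr1, Klf6 and Atf3 bind their own sites. Because enzymatic release of cells from tissue is a well-known inducer, these genes are read with care in any sorted cell.

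The cells were PyMT-Bo1, a bone-metastatic mouse mammary tumor line of C57BL6 background driven by the polyoma middle T oncogene. They had been labelled with lentiviral Luc2-EGFP, H2B-mApple and Thy1.1, stained with the membrane dye DiD, which is diluted at each division, and injected into the left ventricle of wild-type female C57BL6/J mice aged 8 to 10 weeks. Femurs and tibias of 5 mice were pooled at day 11, and single live CD45- tumor cells were sorted from the pool. They were sorted as DiD+ (32 cells, high in dye, which the authors call dormant) or DiD- (28 cells, low in dye, which they call proliferative). Both groups carried the same labels and went through the same bone grinding, collagenase digestion at 37 °C, magnetic enrichment and sort. No cell that skipped digestion was analysed here, so a level present in the bone and a level reached during isolation cannot be told apart in either group. The labels name no mouse for any cell, so each group is 1 sample of cells, and no test or p-value is given. Counting intervals below are exact Poisson or exact binomial at 95% and cover counting error only, not differences between cells or mice.

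Depth ran from 2276789 to 7794219 counts in DiD+ cells (median 4653711) and from 2624405 to 6199108 in DiD- cells (median 4440161). A transgene was counted in 31 of 32 DiD+ and 28 of 28 DiD- cells and Krt8, an epithelial keratin, in every cell, while Epcam, an epithelial adhesion gene, was at 0 in all of them. The PyMT oncogene itself was counted in only 7 DiD+ and 5 DiD- cells. Ptprc, the gene of CD45, against which the sort selected, was counted in 6 DiD+ cells and 1 DiD- cell. Markers of bone marrow cells stood out in 9 cells, numbered 19, 21, 24, 30, 37 and 88 among the DiD+ and 44, 84 and 86 among the DiD-. These held at least 10 counts for 7 or more of 13 macrophage markers or for 4 or more of 7 erythroid markers. The macrophage markers summed to 0 to 19964 CPM per cell in DiD+ and 0 to 1728 in DiD- cells, and the erythroid markers to 0 to 174258 and 0 to 46536. The immediate early genes were present in these 9 cells at mean log2(CPM + 1) values of 6.63 to 10.07, inside the wide range of the other cells. Among them, DiD+ cells 21, 24, 30 and 88 lay at 6.63 to 7.33, below the DiD+ median of 8.79, and cells 19 and 37 above it. The 3 DiD- cells lay at 8.73 to 9.75, above the DiD- median of 8.63. Ratios without the 9 cells are given for each gene below.

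The promoters of 4 of the genes are printed as examples of the AP-1 subunit genes among the 10, whose pairs are compared over cells further on. Sequences come from RefSeq on GRCm38.p6 and run 5′ to 3′ on the gene's strand. Those of Fos, Fosb and Jun end at the base before the first exon of the gene given below. That of Junb ends at the base before the RefSeq start, a short distance before the first exon of the gene given below. Capitals mark TGACG (the core of a cyclic AMP response element, bound by CREB and ATF proteins), TGACATCA (the variant AP-1 and ATF site known from the Jun promoter) and TATAAA. The windows are chr12:85473640-85473889 on the plus strand for Fos, chr7:19310052-19310295 on the minus strand for Fosb, chr4:95052223-95052472 on the minus strand for Jun and chr8:84978749-84978998 on the minus strand for Junb.
Fos: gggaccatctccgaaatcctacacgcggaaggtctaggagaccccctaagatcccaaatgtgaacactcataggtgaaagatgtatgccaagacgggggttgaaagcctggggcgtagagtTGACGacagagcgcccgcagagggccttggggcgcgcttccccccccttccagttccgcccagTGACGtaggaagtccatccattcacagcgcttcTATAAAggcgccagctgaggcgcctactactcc
Fosb: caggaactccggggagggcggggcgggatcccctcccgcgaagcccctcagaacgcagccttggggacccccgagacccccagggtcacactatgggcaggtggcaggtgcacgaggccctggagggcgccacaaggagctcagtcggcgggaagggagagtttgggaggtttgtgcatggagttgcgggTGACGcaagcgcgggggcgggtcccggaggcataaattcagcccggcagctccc
Jun: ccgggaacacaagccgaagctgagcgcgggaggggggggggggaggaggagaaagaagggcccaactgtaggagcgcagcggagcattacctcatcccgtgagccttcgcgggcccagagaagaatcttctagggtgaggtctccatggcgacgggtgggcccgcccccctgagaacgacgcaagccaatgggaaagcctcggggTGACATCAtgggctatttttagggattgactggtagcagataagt
Junb: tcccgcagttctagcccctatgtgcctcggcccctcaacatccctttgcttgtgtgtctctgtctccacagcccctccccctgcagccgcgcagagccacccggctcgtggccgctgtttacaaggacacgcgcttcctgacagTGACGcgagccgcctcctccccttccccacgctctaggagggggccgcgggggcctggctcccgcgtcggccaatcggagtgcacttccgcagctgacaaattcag

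The table of promoters held 7 of the 10 genes (Fos, Fosb, Jun, Junb, Jund, Atf3 and Klf6). Read on both strands over the 250 bases before the RefSeq start, TGACG was found in 4 of these 7 promoters (Fos, Fosb, Junb and Atf3) and in 17.8% of the 32851 promoters of the same length. The Atf3 match began 7 bases before that start, in bases annotated as an exon of Atf3. The Atf3 window itself lies inside the span of the gene given below. The Jund window, chr8:70697489-70697738, ends upstream of the gene given below, which starts at 70698949, and does not adjoin it. It held none of the motifs read here, which does not describe the bases just before the annotated Jund gene. The Fos promoter held TGACG 129 and 66 bases before the start and TATAAA 33 bases before it. TGACATCA was found in 2 of the 7, 45 bases before the start of Jun and 119 bases before that of Klf6, and in 2.93% of all promoters. The AP-1 site TGANTCA (6.75% of promoters) and the CArG box bound by serum response factor (1.47%) were in none of the 7 windows. These are matches of letters in a short window and say nothing about binding in these cells.

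As a share of the transcripts counted, the 10 genes were at almost the same level in DiD+ and DiD- cells. They together took 0.930% of all counts in DiD+ and 0.947% in DiD- cells, of which Fos alone made up 37.7% and 37.3%. Per cell their sum ran from 188 to 34857 CPM in DiD+ cells (median 8898) and from 525 to 21686 CPM in DiD- cells (median 7837). The log2 ratio of summed CPM, DiD+ over DiD-, had a median of -0.07 over the 10 genes and ran from -0.44 for Atf3 to 0.38 for Junb. Of these, 4 lay above 0 and the other 6 below. With each cell scaled by its spike-in RNA all 10 lay below 0, from -0.74 for Fosl1 to -0.03 for Junb, with a median of -0.49 beside -0.34 over all genes, so that Fosb (-0.45), Junb, Jund (-0.64) and Klf6 (-0.13) turned sign. At least 2-fold higher were 0 of the 10 genes, against 12.1% of all genes tested, and at least 2-fold lower were also 0 of the 10, against 4.86% of all genes. Without the 9 cells with marrow markers both counts were again 0 of 10, against 10.5% and 5.82% of 12155 genes, and the median ratio was -0.014. Over all 12432 genes the median ratio was 0.04, with quartiles at -0.29 and 0.46. The groups overlapped for every one of the 10 genes, and each gene's difference in mean log2(CPM + 1) (the largest was 0.64) was smaller than the smaller of its 2 standard deviations over cells.

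**Figure D1:**
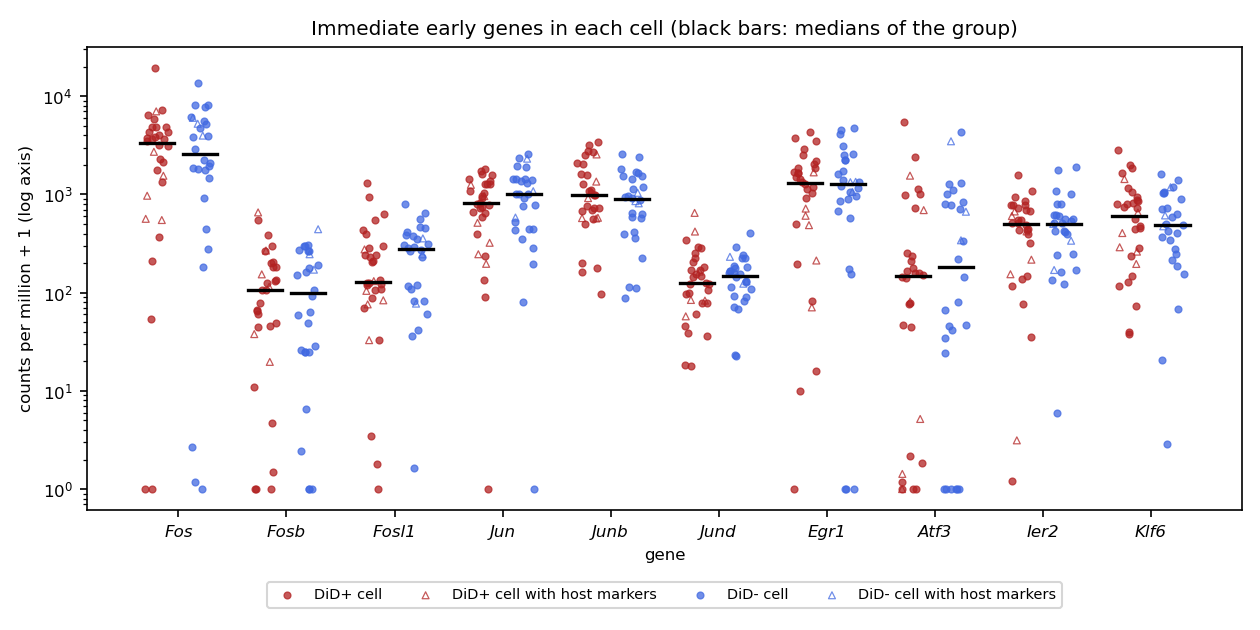
Each point is 1 cell, the x axis gives the gene, the y axis CPM + 1 on a log axis, red points DiD+ (n = 32), blue points DiD- (n = 28), open triangles the 9 cells with bone marrow markers, and black bars the medians. The groups overlap for every gene, with cells at 0 for Fos, Fosb, Jun, Egr1 and Atf3 in both groups and none at 0 for Junb, Jund, Ier2 or Klf6.

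Fos, the prototype AP-1 subunit (GRCm38 chr12:85473890-85477273, plus strand), was the most abundant of the 10. It was counted in 30 of 32 DiD+ and 27 of 28 DiD- cells. Per cell it ran from 0 to 19351 CPM in DiD+ (median 3352) and from 0 to 13564 CPM in DiD- cells (median 2582). The higher median and the highest cell were both in the DiD+ group, and cells with almost no Fos were in both. Summed over cells, the DiD+ level of Fos was 3502 CPM (interval 3493 to 3512) and the DiD- level 3533 CPM (3522 to 3543), which gives a log2 ratio of -0.01. Cell 29 held 14.9% of the DiD+ counts and cell 77 held 15.1% of the DiD- counts, and the ratio was -0.21 without the former and 0.17 without the latter. It was 0.16 without the cells with marrow markers.

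Fosb, a close relative of Fos (chr7:19302696-19310051, minus strand), was far scarcer. Its cells ran from 0 to 655 CPM in DiD+ (median 106) and from 0 to 441 CPM in DiD- (median 99.0), and it was counted in 29 and 25 cells. The log2 ratio of summed CPM was 0.20, and -0.01 without cell 19, which held 17.02% of the DiD+ counts and is 1 of the 9 cells with marrow markers. Without all 9 it was 0.15. Per kilobase of exon, a rough scale for comparing genes with each other, Fosb stood at 23.6 CPM in DiD+ and 20.6 in DiD- cells and Fos at 1489 and 1502. The length merges the exons of all annotated transcripts (6243 bases from 7 transcripts for Fosb). It can therefore exceed the message present and understate the level.

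Fosl1, which encodes Fra-1, a Fos relative tied to invasion in breast cancer (chr19:5447547-5455946, plus strand), gave the widest gap between the typical cells of the groups. DiD+ cells ran from 0 to 1314 CPM with a median of 128, and DiD- cells from 0.626 to 796 CPM with a median of 276. A DiD+ cell was the higher in 39.7% of all pairs of a DiD+ and a DiD- cell, the lowest share among the 10 genes. The log2 ratio of the medians was -1.11 while that of summed CPM was -0.18. The gap between the medians differed in size between the 2 blocks of cell numbers described further on. Cell 36 held 18.1% of the DiD+ counts, and without it the summed ratio was -0.42. Without the cells with marrow markers it was -0.03. The 2 highest cells were nonetheless DiD+. Fosl1 shares 1163 exonic bases with Ccdc85b on the other strand, which an unstranded library cannot separate, and Ccdc85b itself stood at 43.3 and 40.3 CPM.

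Jun, the usual partner of Fos (chr4:95049034-95052222, minus strand), ran from 0 to 1806 CPM in DiD+ cells (median 808) and from 0 to 2587 CPM in DiD- cells (median 1007). The 5 highest cells were all DiD-. Summed levels were 863 and 1054 CPM, a log2 ratio of -0.29, which stayed between -0.34 and -0.21 with each cell left out in turn. Its ratio without the 9 cells with marrow markers was -0.12. It shares 232 exonic bases with Junos, a transcript of the other strand.

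Junb (chr8:84974484-84978718, minus strand), which pairs with Fos like Jun but often opposes Jun in growth control, went the other way. It was counted in every cell, from 95.7 to 3442 CPM in DiD+ (median 983) and from 88.1 to 2607 CPM in DiD- cells (median 895). The 4 highest cells were DiD+. Summed levels were 1274 and 982 CPM, a log2 ratio of 0.38, the highest of the 10 and 0.41 without the cells with marrow markers. Junb shares 173 exonic bases with Prdx2 on the other strand, at 525 and 485 CPM.

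Jund (chr8:70698949-70700616, plus strand) differs from the other members in that its message is present without a stimulus in most cell types. It too was counted in every cell, from 17.1 to 648 CPM in DiD+ (median 123) and from 21.7 to 401 CPM in DiD- cells (median 148). Its log2(CPM + 1) values had the smallest standard deviation of the 10 genes, 1.20 in DiD+ and 0.93 in DiD- cells. Summed, its log2 ratio was 0.10, and -0.09 without the cells with marrow markers, of which cell 19 alone held 15.04% of the DiD+ counts (-0.08 without that cell). Jund shares 877 exonic bases with Gm11175 on the other strand.

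Egr1, a zinc finger factor induced through ERK and serum response factor, was second to Fos in summed CPM in both groups. It ran from 0 to 4302 CPM in DiD+ cells (median 1307) and from 0 to 4782 CPM in DiD- cells (median 1268), with 1 DiD+ and 3 DiD- cells at 0. Summed levels were 1387 and 1544 CPM, a log2 ratio of -0.15, and -0.0025 without the cells with marrow markers. Both the 2 highest cells and the larger number of cells at 0 were thus in the DiD- group.

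Atf3, an ATF factor induced by stress and by DNA damage (chr1:191170296-191218039, minus strand), had its counts concentrated in few cells. It was counted in 28 of 32 DiD+ cells (87.5%, exact binomial interval 71.01 to 96.49) and 22 of 28 DiD- cells (78.6%, 59.05 to 91.70), and with at least 10 counts in 24 and 22 cells. Medians were 147 and 181 CPM but the highest cells reached 5518 CPM in DiD+ and 4298 CPM in DiD-, and in each group 3 cells held the larger part of all Atf3 counts. Cell 29 held 31.8% of the DiD+ and cell 71 held 24.6% of the DiD- counts. The log2 ratio of -0.44, the lowest of the 10, became -0.95 without cell 29 and -0.09 without cell 71. Without the cells with marrow markers it was -0.11, and Jun was then the lowest.

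Ier2, a nuclear regulator of transcription (chr8:84661331-84662852, minus strand), was counted in every cell and had nearly equal medians. It ran from 0.206 to 1578 CPM in DiD+ (median 500.1) and from 5.01 to 1884 CPM in DiD- cells (median 503). In summed CPM its log2 ratio was -0.12, and -0.06 without the cells with marrow markers.

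Klf6, a Krüppel-like zinc finger factor and growth suppressor (chr13:5861482-5870394, plus strand), had the next highest ratio after Junb. It ran from 36.9 to 2860.1 CPM in DiD+ cells (median 605) and from 1.88 to 1596 CPM in DiD- cells (median 493). The 4 highest cells were DiD+. Its log2 ratio of summed CPM was 0.27, and 0.37 without the cells with marrow markers.

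Per kilobase of exon, in summed CPM, the order in DiD+ cells was Fos (1489), Junb (554), Ier2 (336), Egr1 (309), Jun (271), Atf3 (217), Klf6 (167), Fosl1 (122), Jund (98.8) and Fosb (23.6). In DiD- cells Ier2 (366) and Egr1 (344) and Jun (331) came closer to Junb (427), Atf3 (295) was next, and Fosl1 (139) passed Klf6 (138). Of the 18 steps between neighbours in these orders, 0 were larger than the larger of the neighbours' standard deviations of log2(CPM + 1) over cells. The largest was Jund to Fosb in both groups (log2 steps of 2.07 and 2.16). Neighbours give the smallest steps of an order, and the spread over cells is not the error of a summed level. This count therefore cannot show which steps would hold in other cells. The order also rests on the merged exon lengths, and other lengths were not tried.

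For most of the 10 genes the sign of the summed ratio was not the same in the 2 blocks of cell numbers that the labels hold. What separates cells 17 to 46 from cells 63 to 92 is not stated in the labels. Among cells 17 to 46 (18 DiD+, 12 DiD-) the median log2 ratio of the 10 genes was 0.33, with 7 genes above 0. Among cells 63 to 92 (14 DiD+, 16 DiD-) it was -0.50, with 8 genes below 0. The median over all genes was 0.04 in both blocks. Quartiles over all genes were -0.42 and 0.63 in the first block and -0.34 and 0.51 in the second, so 0 lay between them in both. How many of all genes lay above or below 0 was not counted.

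Fos stood at 3983 CPM in DiD+ and 2972 in DiD- cells of the first block and at 2818 and 3997 CPM in the second, log2 ratios of 0.42 and -0.50. Fosb gave 0.62 and -0.59, Junb gave 0.80 and -0.24, and Jund gave 0.42 and -0.53. The ratio of Atf3 was 0.50 and -1.17, the only value past 2-fold among these. Of all genes, 17.1% were at least 2-fold higher and 9.78% lower in the first block, and 13.2% and 8.52% in the second. Fosl1 went the opposite way to Fos and Atf3, with -0.49 and 0.12. Jun (-0.08 and -0.54), Egr1 (-0.10 and -0.11) and Klf6 (0.16 and 0.37) kept their sign. The first block held 5 of the 6 DiD+ cells with marrow markers and 1 of the 3 such DiD- cells. Ier2 gave 0.23 and -0.50, so that the sign differed between blocks for 7 of the 10 genes. The share of all genes whose sign differed between blocks was not counted.

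**Figure D2:**
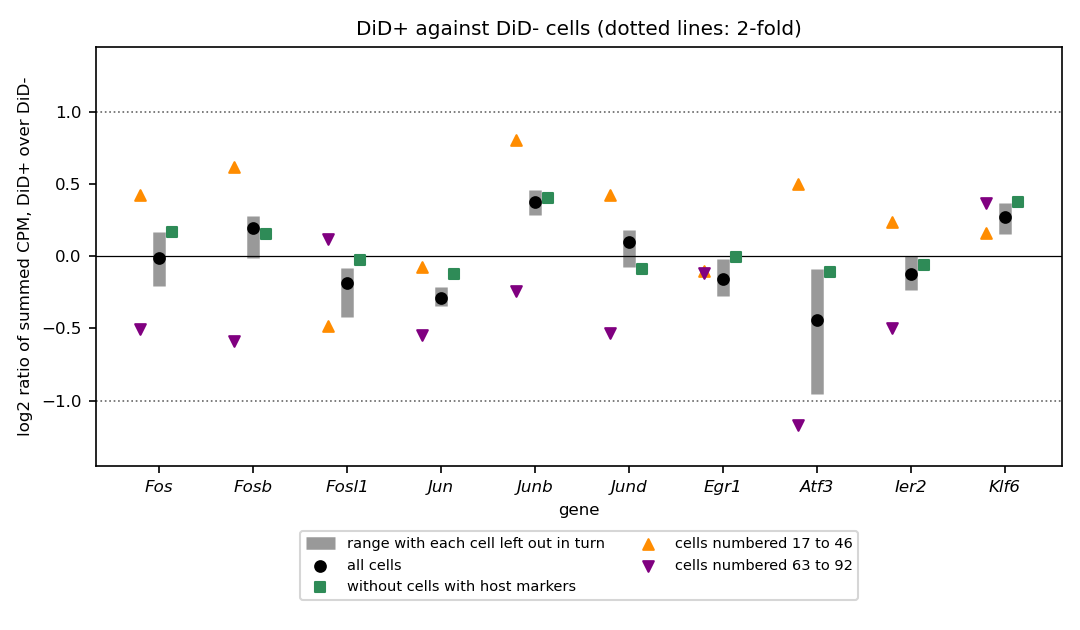
The y axis gives the log2 ratio of summed CPM, DiD+ over DiD-, for each gene on the x axis. Black circles use all cells, grey bars span the ratios with each cell left out in turn, green squares leave out the 9 cells with marrow markers, and triangles use cells 17 to 46 (orange, pointing up) or 63 to 92 (purple, pointing down) alone. All black circles lie between -0.44 and 0.38, while the orange and purple triangles of 7 genes lie on opposite sides of 0. The share of all genes whose sign differs between blocks was not counted.

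Within each group the genes varied widely and together. For each cell a score was taken as the mean log2(CPM + 1) of the 10 genes. It ran from 2.30 to 10.39 in DiD+ cells (median 8.79, SD 1.88) and from 3.46 to 10.33 in DiD- cells (median 8.63, SD 1.82), and a DiD+ cell was the higher in 48.1% of pairs across groups. All 10 genes reached 10 counts in 22 DiD+ and 19 DiD- cells. Most cells of both groups thus held the whole set.

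Some cells of both groups held little of the set. A score under 6, a limit picked after the values were seen, was found in 4 DiD+ cells, numbered 76, 18, 68 and 75, as well as in 3 of the DiD- group, numbered 92, 74 and 32. The next DiD+ cell, 63, lay just above the limit at 6.05, and the next DiD- cell, 33, at 7.11. Cell 76 had 0 counts of Fos, Fosb, Jun, Egr1 and Atf3 in 3209508 counts, which allows up to 0.935 CPM of each (3 counts), and its highest member was Junb at 95.7 CPM. Cell 92 had 0 counts of the same 5 genes in 2846434 counts, yet held 373 CPM of Fosl1. Cell 32 was at 0 for Fosb, Egr1 and Atf3 and had a single count of Fos, while Fosl1 stood at 312 CPM and Klf6 at 216 CPM. Of these 7 cells none was among the 9 with marrow markers.

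Totals of these 7 cells ran from 2846434 to 5287417 counts, inside the range of the other cells, and spike-in RNA made up 1.23% to 2.54% of counts in 6 of them and 6.53% in cell 68. Cell 68 had the fewest genes detected among DiD+ cells (6024, group median 8283) and cell 92 the fewest among DiD- cells (6701, group median 8424.5). The mitochondrial share of cell 76 was 3.85%, the second highest of all cells. The part of these in the low scores was not tested. Over cells, the Spearman correlation of the score with total counts was 0.11 in DiD+ (n = 32) and -0.11 in DiD- cells (n = 28). With the number of genes detected it was -0.07 and 0.15, with the spike-in share -0.01 and -0.07, and with the mitochondrial share -0.13 and -0.16.

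At the high end, cell 29 (DiD+) had a score of 10.39 with 19351 CPM of Fos, 5518 CPM of Atf3 and 2860.1 CPM of Klf6. Its 10 genes summed to 34857 CPM. The highest DiD- score, 10.33, was that of cell 40, where they summed to 19730.3 CPM.

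**Figure D3:**
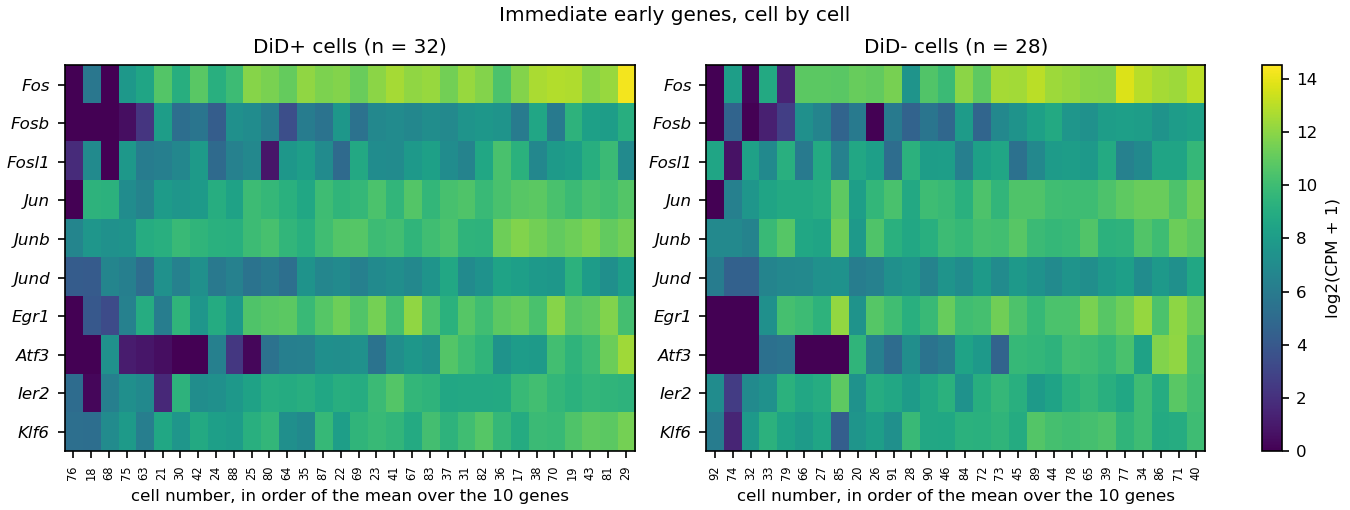
Rows are the 10 genes, columns the cells of each group in order of the mean over the 10 genes (cell numbers below), and color gives log2(CPM + 1). The dark columns at the left of each panel are the cells with scores under 6 (4 DiD+, 3 DiD-), in which Junb and Jund still have counts.

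The size of the spread differed between members. Among 2182 genes with at least 100 CPM, the standard deviation of log2(CPM + 1) over cells ranked at the 98.7th percentile in DiD+ and the 99.9th in DiD- cells for Atf3, at 96.6 and 99.5 for Fos and at 92.3 and 98.9 for Egr1. Fosb lay at 91.6 and 96.2, Junb at 53.9 and 72.6 and Jund at 51.9 and 62.1. Junb and Jund had the lowest ranks of the 10 in both groups.

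Of the 45 pairs of members, the median Spearman correlation over cells was 0.62 in DiD+ cells (range 0.27 to 0.77, 34 pairs over 0.5) and 0.50 in DiD- cells (range -0.14 to 0.87, 22 pairs over 0.5). Over all pairs of the 2182 genes it was 0.02 and 0.01, with 1.43% and 1.77% of pairs over 0.5. Values of one cell share its library and its total, and each cell counts once, so these are descriptions. The highest pairs were Fos with Ier2 and Fos with Klf6 in DiD+ cells, both 0.77, and Fos with Fosb and Egr1 with Ier2 in DiD- cells, both 0.87.

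Fosl1 stood apart from the others, and more so in DiD- cells. Its correlation with the other 9 genes had a median of 0.44 in DiD+ (0.27 to 0.55) and 0.01 in DiD- cells (-0.14 to 0.22). With Jun it was 0.40 and -0.14. Without Fosl1 the median over the remaining 36 pairs was 0.65 in DiD+ and 0.57 in DiD- cells. Whether the 2 groups differ in these correlations was not tested, since each group is 1 sample.

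In DiD- cells 2 sets of pairs could be picked out. Egr1, Ier2 and Junb correlated at 0.78 to 0.87 with each other, and Fos, Fosb, Atf3 and Klf6 at 0.62 to 0.87. Between the sets the 12 values ran from 0.26 for Ier2 with Klf6 to 0.59 for Fos with Egr1. In DiD+ cells the same 12 pairs ran from 0.39 for Fosb with Egr1 to 0.77 for Fos with Ier2, and pairs within the sets from 0.55 to 0.77. Jun was tied to both sets, at 0.73 with Egr1 and 0.75 with Fos in DiD- cells. These sets were picked after the values were seen.

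**Figure D4:**
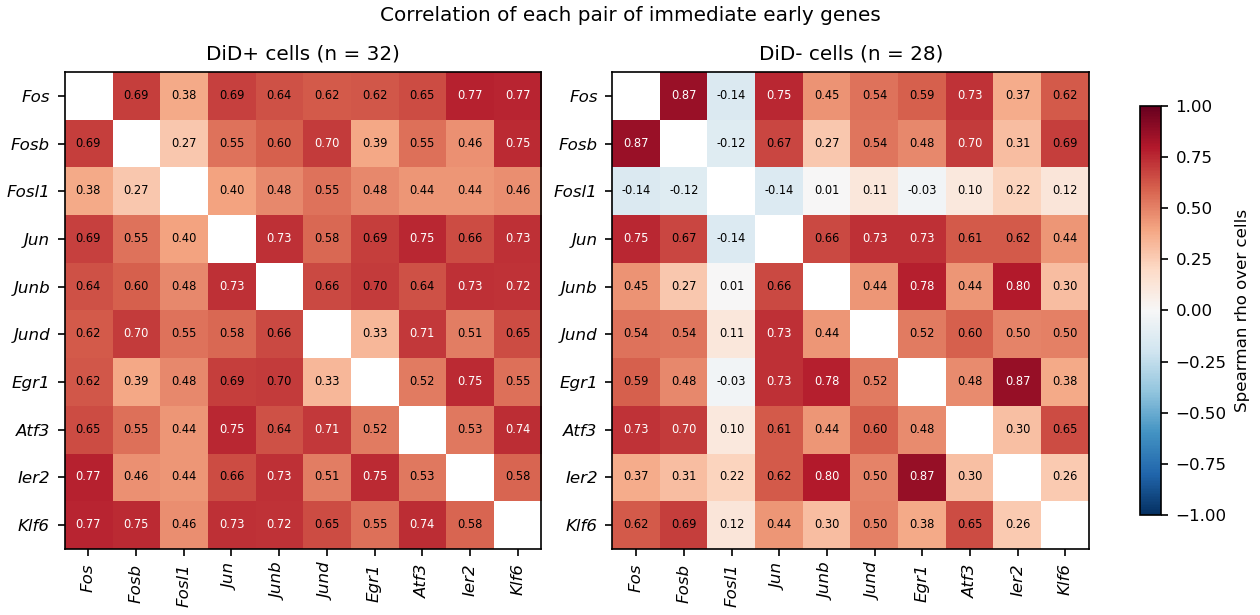
Each square gives the Spearman rho over cells of log2(CPM + 1) for a pair of the 10 genes, in DiD+ (left, n = 32) and DiD- cells (right, n = 28), on a scale from -1 (blue) to 1 (red). The Fosl1 row and column are pale in DiD- cells (-0.14 to 0.22) and red in DiD+ cells (0.27 to 0.55).

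The mean of the heat shock genes, though not every gene in it, followed the score. The mean log2(CPM + 1) of 13 heat shock genes correlated with it at 0.66 in DiD+ and 0.58 in DiD- cells. Within cells 17 to 46 the values were 0.50 and 0.29, and within cells 63 to 92 they were 0.78 and 0.66. The members of this list were uneven. Dnajb1, a co-chaperone, correlated at 0.75 and 0.61, Bag3 at 0.65 and 0.44 and Dnaja1 at 0.72 and 0.40. Hspe1 (-0.10 and -0.27) and Hspd1 (0.01 and 0.10), which encode mitochondrial chaperonins, did not follow the score. Low values were not limited to these genes: Hsp90aa1 gave 0.12 and 0.17, Hsph1 0.30 and 0.18 and Hsp90ab1 0.45 and -0.03. Hspa1a and Hspa1b are near-identical and share reads, so their separate values (0.06 and 0.14, and 0.46 and 0.45) are uncertain. Cells 81 and 29, both DiD+, had the highest heat shock means, 10.74 and 9.88, with scores of 10.18 and 10.39.

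**Figure D5:**
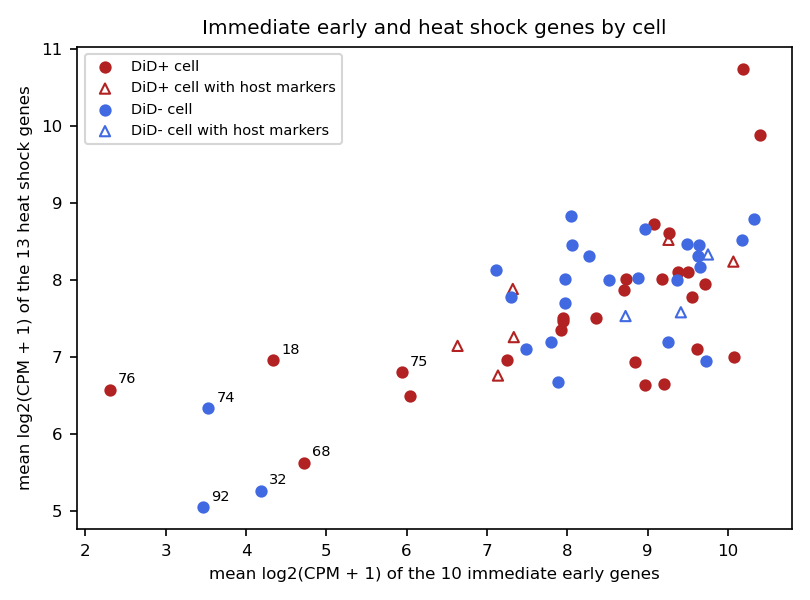
Each point is 1 cell, with the mean log2(CPM + 1) of the 10 immediate early genes on the x axis and that of 13 heat shock genes on the y axis, DiD+ cells red, DiD- cells blue, and open triangles the cells with marrow markers. Numbers name the 7 cells with a score under 6, which lie between 5.04 and 6.96 on the y axis.

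Other gene lists tracked the score to different degrees. The mean of 35 further immediate early genes correlated at 0.87 in DiD+ and 0.71 in DiD- cells. Feedback genes of the ERK pathway gave 0.52 and 0.48, and genes of the integrated stress response, in which Atf4 and Ddit3 act, gave 0.24 and 0.28. S phase genes gave -0.16 and -0.20 and G2/M genes -0.20 and 0.40. AP-1 target genes gave 0.45 and 0.01, bZIP partner genes 0.38 and 0.09, and upstream kinases and factors 0.09 and 0.34. Macrophage markers gave -0.06 and -0.13, erythroid markers -0.03 and 0.39 and tumor cell markers -0.16 and -0.40. Over the other marker lists the values ran from -0.49 (osteoclast markers in DiD+ cells) to 0.24.

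Of 7439 genes ranked by the mean of their correlations with the score in the 2 groups, the 10 most alike included Trib1, Hbegf, Dnajb1, Klf4, Wsb1, Sertad1, Nr4a1, Phlda1 and Gm11175. Trib1, a pseudokinase gene, led with 0.70 in DiD+ and 0.80 in DiD- cells. Hbegf, an EGF receptor ligand gene, had 0.82 and 0.55, and Klf4 had 0.75 and 0.60. Gm11175 lies over an exon of Jund on the other strand, so its counts may be those of Jund. The median over all 7439 genes was -0.01 (95th percentile 0.27), and 14 of the top 30 genes were in the list of further immediate early genes and 3 in that of heat shock genes.

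Between groups, those further immediate early genes lay higher in DiD+ cells than the 10 members did. Of the 35, 34 reached 1 CPM. Their median log2 ratio was 0.56, 29 were above 0, 7 (20.6%) exceeded a 2-fold difference toward DiD+ against the 12.1% over all genes, and 0 did so toward DiD-. The highest were Nr4a3 (2.45), Zfp36l1 (1.35) and Nr4a2 (1.31) and the lowest Klf9 (-0.47), Klf2 (-0.31) and Socs3 (-0.28). Nr4a3, an orphan nuclear receptor gene, stood at only 10.4 and 1.08 CPM, and cell 17 held 54.3% of its DiD+ counts. Zfp36l1, whose product promotes decay of AU-rich messages, was broader, in 32 DiD+ and 25 DiD- cells at 44.1 and 16.7 CPM. Dusp1, a phosphatase that switches off MAPKs, stood at 1095 and 561 CPM (log2 ratio 0.96). It was picked after its value was seen. The list's median was 0.71 in cells 17 to 46 and 0.42 in cells 63 to 92, the same sign in both, and 0.66 without the cells with marrow markers.

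Genes upstream and downstream lay closer to the median of all genes. Past 2-fold, the shares over all genes are again 12.1% higher and 4.86% lower. Over 21 upstream kinases and factors the median log2 ratio was 0.02, with 1 gene at least 2-fold higher and 1 lower. Over 14 partner genes of the bZIP family it was 0.21, with 4 genes (28.6%) at least 2-fold higher and 0 lower, and 0.20 without the cells with marrow markers. Over 14 AP-1 target genes it was 0.24, with 3 genes (21.4%) at least 2-fold higher and 0 lower. Among genes with at least 10 CPM they ran from Hmga1 (-0.75) to Spp1, the osteopontin gene (1.28, 5682 and 2345 CPM). Besides Spp1, the genes past 2-fold were Mmp9 (7.95 and 1.85 CPM, 56.1% of DiD+ counts in cell 42) and Il11 (3.22 and 0.126 CPM, 84.7% in cell 36). The median of this list was -0.0008 over genes with 10 CPM in a group and -0.34 with the median of each cell's CPM. It was positive with the other alternatives. Over 11 ERK feedback genes it was 0.04, with 2 genes (18.2%) at least 2-fold higher and 1 lower, these being Spry1 at 2.61 (127 and 19.9 CPM), Spry4 at 1.38 and Spred2 at -1.11. Spry1 was counted in 19 DiD+ and 8 DiD- cells, and cell 41 held 28.6% of its DiD+ counts.

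The stress lists lay close to the median of all genes. The 13 heat shock genes had a median log2 ratio of 0.14 with 0 genes past 2-fold in either direction, from Hspd1 (-0.50) to Hspb1 (0.78), against 12.1% higher and 4.86% lower over all genes. Without the cells with marrow markers the median was 0.05 and Hspb1 (1.15) was past 2-fold. The 10 integrated stress response genes with at least 1 CPM had a median of -0.09, and the 1 gene past 2-fold, Chac1 (-3.21), had 73.5% of its DiD- counts in cell 28. Beside this, 43 S phase genes had a median of -0.70 and 53 G2/M genes one of -0.47. Without the cells with marrow markers the medians were -0.57 and -0.23. In cells 17 to 46 they were -1.10 and -1.12, and in cells 63 to 92 they were -0.34 and 0.10, so that the G2/M genes turned sign between blocks. With the median of each cell's CPM they were -1.72 and -3.31.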

How the data were processed

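Single-cell libraries were made with a SMARTer v4 and Nextera XT protocol, which keeps no strand, with ERCC spike-in RNA. Per the labels, the authors trimmed reads, aligned them with STAR to GRCm38/mm10 extended by spike-in and transgene sequences, and quantified genes with RSEM. Tool versions and the gene annotation are not given in the sources used here. The authors deposited RSEM's estimated counts, without normalization, for 47729 mouse genes, 92 spike-ins and 4 transgenes in 60 cells. They also deposited a normalized signal table made with BASiCS, used here as an alternative scaling. In total, 0 columns were left unmatched to a cell.

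Estimated counts (96.6% of values whole) were rounded. Library totals hold mouse genes only. For each group the counts of all its cells were added and scaled to CPM, and log2 ratios (DiD+ over DiD-) took a pseudocount of 1 CPM, which understates ratios of low genes. Genes under 1 CPM in both groups were left out of counts of genes. Levels per kilobase used the merged length of the exons of all transcripts of a gene in GENCODE M21 (GRCm38). Correlations were Spearman's rho of log2(CPM + 1) within a group. Totals of 2276789 counts or more make 1 count worth under 1 CPM in each cell. Symbols matched 47224 of the mouse genes. No 2 cells had identical columns.

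The members and all gene lists were chosen with earlier results of these data known. Besides the members, genes were named by rule: in each list outside markers and cell cycle, the 3 genes at each end of the log2 ratios, given 10 CPM in either group, of which some are printed, and the 10 genes most correlated with the members' score (mean of both groups' rho, at least 10 CPM, counts in at least 30 cells). Correlations of single heat shock genes, Dusp1 and the 2 sets of pairs were picked after their values were seen. Some genes that meet these rules are not reported here. The ratio and correlation steps were tested on simulated data with known answers.

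Alternatives were the mean or the median of each cell's CPM, BASiCS values, spike-in totals, edgeR 4.0.16 TMM and DESeq2 1.42.0 median-of-ratios factors for scaling alone, pseudocounts of 0.1 and 10 CPM, other minima, thinning to 2200000 counts, and leaving out cells. Python 3.11.15, numpy 2.4.6, pandas 2.3.3, scipy 1.17.1 and R 4.3.3 were used.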

Additional observations from a re-analysis of the deposited data

How the results depend on the processing

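Each group is 1 pool of cells, so values describe these cells alone. The median log2 ratio of the 10 genes (-0.07) was -0.089 with the mean of each cell's CPM, -0.138 with BASiCS values, -0.093 with TMM and -0.099 with DESeq2 factors, -0.014 without the cells with marrow markers, 0.33 in cells 17 to 46, -0.50 in cells 63 to 92 and 0.017 with the median of each cell's CPM. Scaled by spike-ins it was -0.49, and that scaling moved the median of all genes to -0.34. With each cell left out in turn it ran from -0.14 (without cell 29) to 0.021 (without cell 34). The number of genes at least 2-fold lower was 1 in cells 63 to 92 (Atf3), against 8.52% of all genes there. It was also 1 with the median of each cell's CPM (Fosl1), for which no share over all genes is given, and otherwise 0. The number at least 2-fold higher was 0 in every alternative tried, and both numbers were 0 to 0 with single cells left out. Pseudocounts of 0.1 and 10 CPM left the median at -0.07.

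Alternatives for the correlations other than BASiCS values, Pearson's r and, for the pairs, leaving out the cells with marrow markers were chosen after seeing the data. The median pair correlation in DiD- cells (0.50) was 0.38 without the 2 cells farthest from the median score, and 0.44 to 0.57 with single cells left out (cells 92 and 85). In DiD+ cells (0.62) it ran from 0.54 to 0.72 over the alternatives and from 0.58 to 0.65 with single cells left out. The correlation of score and heat shock genes was 0.50 and 0.78 in DiD+ cells numbered 17 to 46 and 63 to 92, and 0.29 in DiD- cells 17 to 46 and 0.47 in DiD- cells without the 2 farthest, with 0.62 to 0.71 and 0.53 to 0.66 when single cells were left out. The causes were not tested. The median of the further immediate early genes (0.56) ran from 0.37 without cell 17 to 0.65 without cell 71 and was 0.09 scaled by spike-ins. The heat shock median (0.14) was -0.03 without cell 81.

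No paired analysis was possible because no mouse is tied to a cell and the replicate numbers were given in accession order.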
